A study of Homo sapiens with 6 samples.

Results

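Eukaryotic translation initiation factors are the proteins that bring the small ribosomal subunit, the initiator tRNA and an mRNA together at a start codon. The genes described here are every symbol beginning with EIF1 to EIF6 in the deposited tables, without the exon-junction helicase EIF4A3, the eIF2 kinases (EIF2AK) and the Argonaute genes once named EIF2C. This left 49 of 58 matching symbols, out of 17789 symbols listed in at least 1 library, and the files annotate 37 of the 49 with translational initiation. The rule uses symbols only. The RNA-seq libraries came from cells labelled A549, an established line from a lung adenocarcinoma. The control group holds 3 libraries whose genotype is given as wild type. The FOXD3 knockdown group holds 3 libraries from cells transfected with a pool of small interfering RNAs against FOXD3, a forkhead transcription factor, with a lipid reagent. Per the labels' protocols the knockdown was examined 72 h after transfection, and nothing in them says whether control wells were mock transfected. Both groups carry the same line label and no other stated change.

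In the usual picture of initiation, eIF2 carries the initiator tRNA and GTP to the small subunit, and eIF2B recharges eIF2 with GTP. The large eIF3 complex holds the small subunit open for mRNA. The eIF4F complex (the cap-binding protein eIF4E, the scaffold eIF4G and the helicase eIF4A) loads the capped mRNA, and the eIF4E-binding proteins block that step by holding eIF4E. Scanning and recognition of the start codon depend on eIF1, eIF1A and eIF5, and eIF5B joins the large subunit. In tumour cells mTOR signalling is known to phosphorylate the eIF4E-binding proteins, which frees eIF4E.

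Values are FPKM, fragments scaled to transcript length and library total, and are given for replicates 1, 2 and 3 of each group in that order; means are ± SD with n = 3 libraries. A log2 change is the knockdown mean of log2(FPKM + 1) minus that of the controls, and a factor is said to rise or fall only when limma's Benjamini-Hochberg adjusted p over all 13340 genes tested was under 0.05. The labels do not say that replicates came from separate cultures, so the p-values rest on the spread between these libraries alone, which may be technical. A fragment in a 2 kb transcript was worth about 0.0674 to 0.0777 FPKM by a rough estimate of depth, 6.44 to 7.42 × 1e6 fragments per library. That estimate cannot leave a window of 5 to 10 × 1e6 fragments, which was set after the values were seen. FOXD3 itself was listed at 0.152, 0.291 and 0.134 FPKM in control and at 0, 0.0749 and 0 in knockdown libraries. Its groups did not overlap (exact permutation test, two-sided, p = 0.1, which is the lowest value possible for groups of 3). If the depth estimate holds, these levels are at most a few times the value of 1 fragment in a 2 kb transcript. Epithelial markers ranged from CDH1 at 40.9 to 50.2 FPKM to KRT8 at 1900 to 3211. Of 5 genes known to be high in A549, 4 ranged from ALDH1A1 at 29.1 to 105.5 FPKM to AKR1B10 at 387 to 766. Of the 5 epithelial markers 3 rose and CDH1 fell, and of the 5 A549 genes 4 rose and 1 fell. Over all genes tested 25.6% rose and 37.9% fell. The libraries did not match the A549 label in every gene. CDKN2A and MTAP, which A549 cells are known to have lost, stood at 126 to 155 and 9.20 to 12.3 FPKM, and vimentin (VIM), known to be high in A549, at 0.959 to 4.25. Of 9 leukocyte, endothelial and fibroblast markers 3 reached the filter and 2 of them fell, where 37.9% of all genes tested did. Their summed level was 9.23 to 11.5 FPKM in control and 6.26 to 7.17 in knockdown libraries, with DCN listed in no library and CD3E in 1, and their part in the results below was not tested.

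Of the 49 factors, 44 passed the filter of a mean of at least 0.5 FPKM, and 34 of these changed (77.3%), where 63.5% of all genes tested did. More rose than fell: 21 were higher in the knockdown libraries (47.7%, against 25.6% of all genes) and 13 were lower (29.5%, against 37.9%). The median log2 change was 0.13, and over all genes it was -0.09. With the filter at 5 FPKM, which 43 factors passed, 21 rose and 13 fell, with a median of 0.14. Of the 9170 genes past that filter 68.3% changed, 2967 higher and 3295 lower, with a median of -0.02. Among these more abundant genes the background was nearer to an even split. In bulk RNA, fewer cells of a kind and less RNA per cell cannot be told apart. In size the changes were like those of other genes, with a median absolute log2 change of 0.34 beside 0.33. Changes of at least 0.5 in size were found in 16 factors (36.4%, against 31.5% of all genes), 10 higher and 6 lower. Over all 13340 genes tested 1433 were higher and 2773 lower at that size. Control and knockdown libraries did not overlap in 39 of the 44 (88.6%, against 69.1%), 25 with the knockdown above and 14 below. Over all genes tested the knockdown was above in 28.3% and below in 40.8%. The 49 together made up 1.009% to 1.05% of the FPKM total in control and 1.09% to 1.11% in knockdown libraries. The balance moved with scaling. As deposited 61.8% of the factor calls were higher, against 40.4% of the calls over all genes. Median scaling gave 26 higher and 11 lower, 70.3% of the calls higher, against 49.0% over all genes. Quantile normalization moved the median of all genes from -0.09 to 0.03. It gave 17 higher and 16 lower, 51.5% of the calls higher, against 52.4% over all genes, so the excess of rises was not seen there. All 16 larger changes kept their call and direction in all 16 alternative settings. No tested factor owed its place to 1 group, since the lowest, EIF4ENIF1, averaged 4.01 FPKM in control and 3.34 in knockdown libraries.

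**Figure D1:**
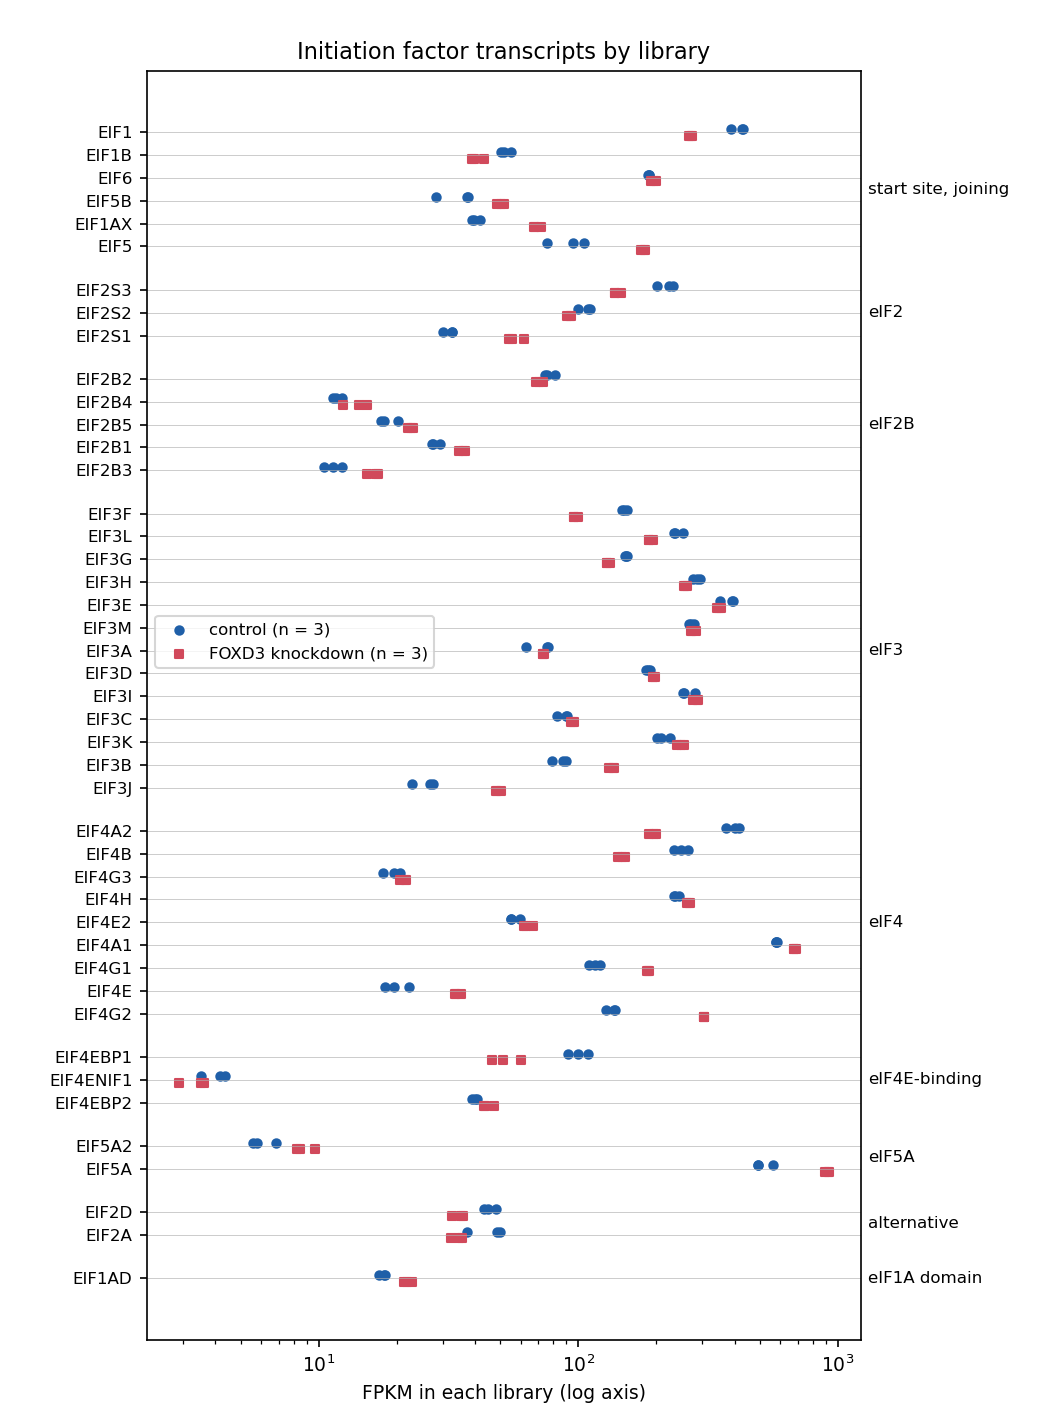
FPKM of the 44 tested factors in each library on a log axis, grouped by complex, with control libraries as blue circles and knockdown libraries as red squares. EIF5A and EIF4A1 are the most abundant, and the control and knockdown points of EIF4G2, EIF4A2 and EIF5A stand well apart.

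**Figure D2:**
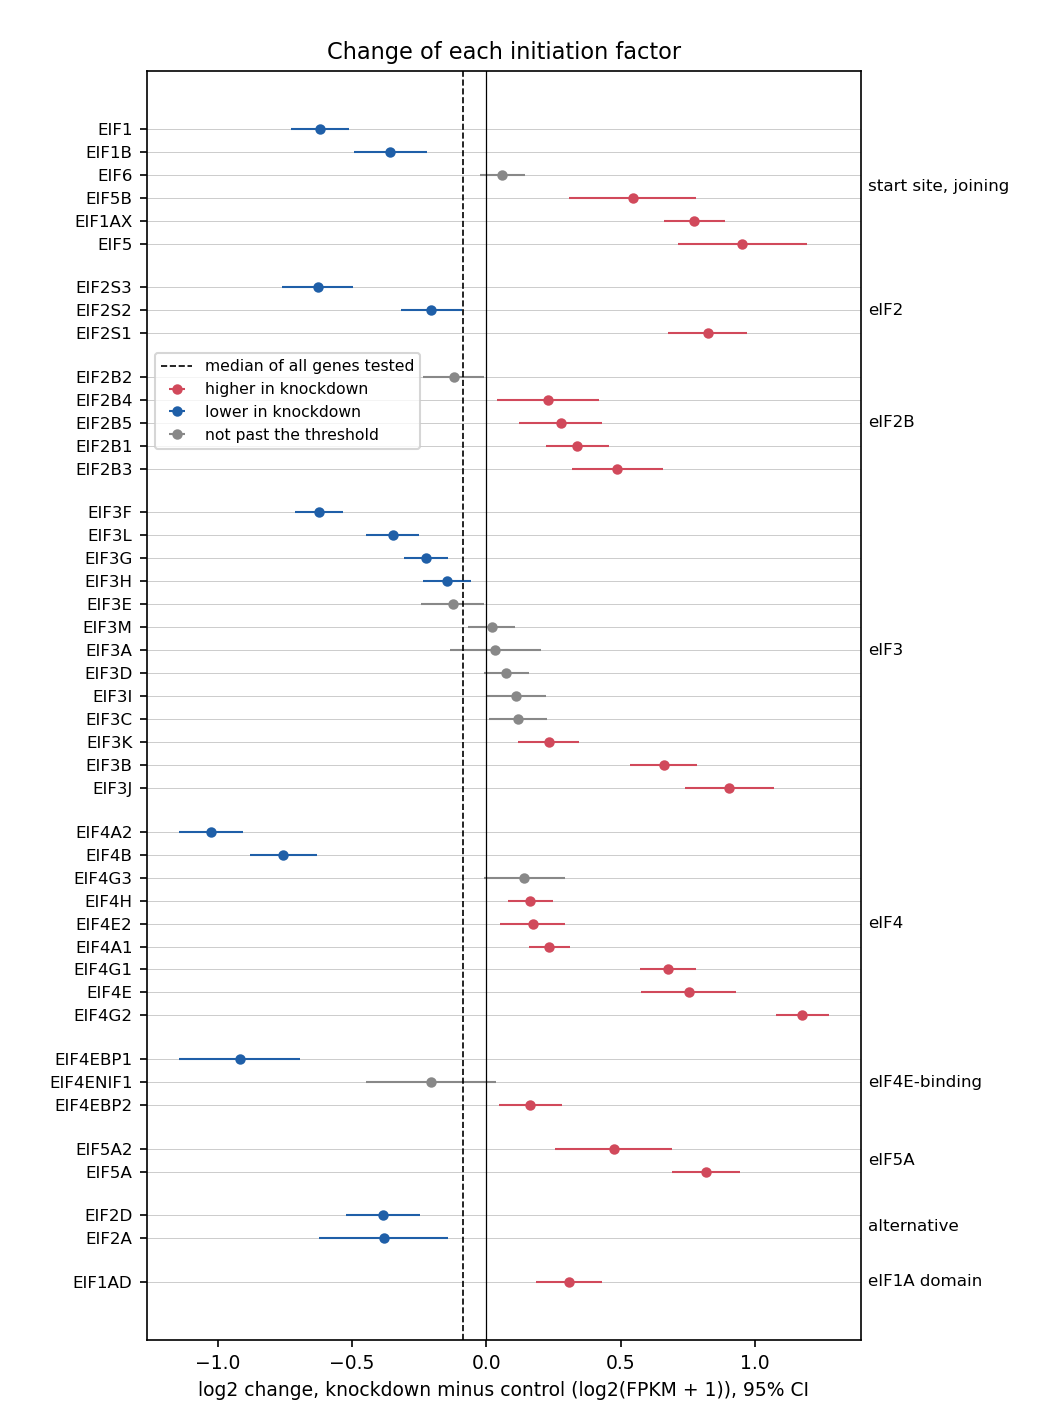
Log2 change (knockdown minus control, log2(FPKM + 1)) of the same 44 factors with limma's 95% confidence interval, coloured by whether the factor rose, fell or did not pass the threshold. EIF4G2 lies farthest right at 1.17 and EIF4A2 farthest left at -1.02, and the eIF2, eIF3 and eIF4 groups each hold factors that rose and factors that fell. The dashed line is the median of all genes, -0.09.

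Many mRNAs of the translation machinery are known to begin with a C followed by an unbroken run of pyrimidines, the terminal oligopyrimidine tract through which mTOR signalling is known to control their translation. RefSeq gene starts (GRCh38.p14) could be matched for 41 of the 49 factors, 37 of them tested. A start was counted as pyrimidine where its first base was C and the next 4 were each C or T, on the gene's own strand and in any entry of the gene. Such a start was found in 9 of the 37 factors (24.3%), in 7.51% of 10040 tested protein-coding genes (82.2% of those tested could be matched) and in 4.07% of all 35116 promoter entries. The 9 are printed because 6 of the 8 matched factors that fell are among them. The other 5 of the 13 that fell (EIF3L, EIF3G, EIF4EBP1, EIF3H and EIF2S2) had no matched start, while all 21 that rose had one. Each line holds the 15 bases before and the 15 from the annotated start, with the tract in capitals.

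EIF4A2 chr3:186783562-186783591 plus strand: gttgggcgccgctgtCTTTTCagtcgggcg
EIF4B chr12:53006441-53006470 plus strand: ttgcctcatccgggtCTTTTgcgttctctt
EIF2S3 chrX:24054941-24054970 plus strand: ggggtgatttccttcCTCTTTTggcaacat
EIF3F chr11:7987322-7987351 plus strand: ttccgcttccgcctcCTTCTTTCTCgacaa
EIF2D chr1:206612451-206612480 minus strand: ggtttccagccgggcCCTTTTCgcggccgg
EIF2A chr3:150546772-150546801 plus strand: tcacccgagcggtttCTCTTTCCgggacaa
EIF3M chr11:32583816-32583845 plus strand: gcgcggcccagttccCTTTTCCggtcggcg
EIF3D chr22:36529152-36529181 minus strand: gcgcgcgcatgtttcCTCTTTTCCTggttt
EIF3K chr19:38619173-38619202 plus strand: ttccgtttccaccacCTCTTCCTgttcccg

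The next 4 factors rose, have 1 annotated start each and are set beside them to show starts without a tract.

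EIF3J chr15:44537132-44537161 plus strand: cacctccgccgtgctaactcctcgctagct
EIF2S1 chr14:67360313-67360342 plus strand: gcgaggaggttccgcatgcgcggtggagtg
EIF1AX chrX:20141824-20141853 minus strand: gcaaagagtcgcggcgccatttgctgccgc
EIF3B chr7:2354812-2354841 plus strand: ccccgtcgcacgcacatggctgggctgtag

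Of the 9 factors with a pyrimidine start, EIF4A2, EIF4B, EIF2S3, EIF3F, EIF2D and EIF2A fell, EIF3K rose, and EIF3M and EIF3D did not pass the test, with a median log2 change of -0.38. Of the 28 without one, 20 rose and 2 fell (EIF1 and EIF1B), with a median of 0.29. Over all matched protein-coding genes the split was in the same direction and smaller: 52.4% of 754 genes with a pyrimidine start fell and 18.3% rose (median -0.23), and 36.0% of 9286 genes without one fell and 27.7% rose (median -0.06). Leaving out ribosomal proteins left a median of -0.22 over 706 genes. This grouping was made after the changes had been seen and was given no test, and the tracts of EIF3M, EIF3D and EIF3K belong to factors that did not fall. An annotated start is not a measured one in these cells.

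**Figure D3:**
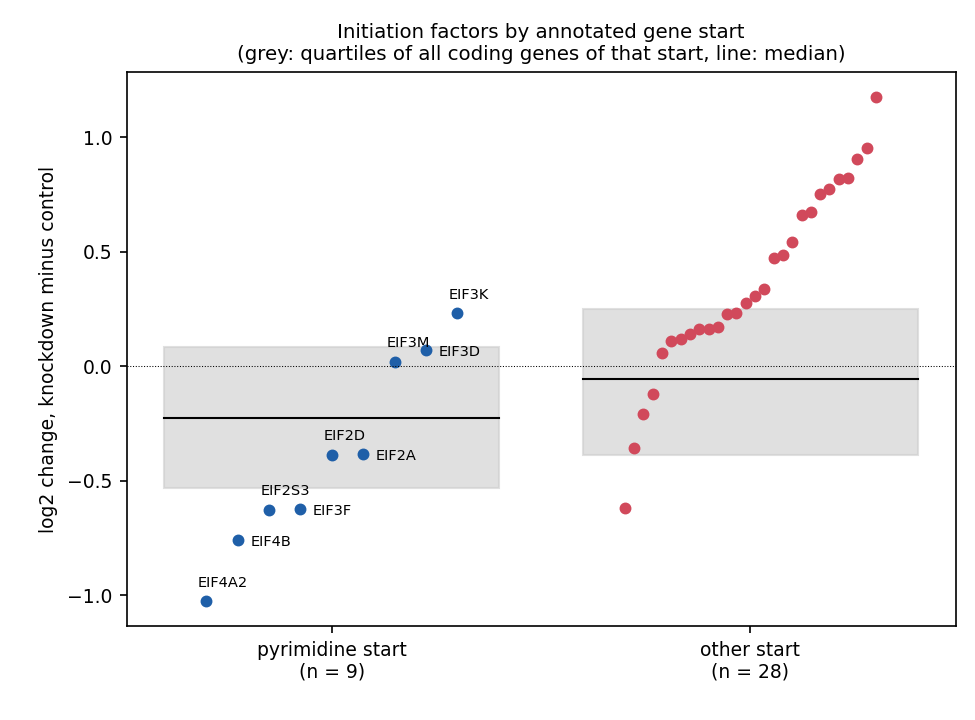
Log2 change (knockdown minus control) of the 37 tested and matched factors, split by whether the annotated start is a pyrimidine start; each point is a factor, and grey boxes give the quartiles and median of all matched protein-coding genes of that kind. Of the 9 factors with a pyrimidine start 6 lie at -0.38 or below, while 20 of 28 without one rose.

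Beside the tract, the E-box letters CACGTG (a palindrome, so both strands are covered, and the core site of MYC and MAX) were searched in the 250 bases before and 50 after each start. They were found in 9 of the 37 factors (24.3%), in 12.6% of tested protein-coding genes and in 7.26% of all entries. Of the 9, EIF4E, EIF4G1, EIF2B3, EIF5A2, EIF4H and EIF3K rose (66.7%) and EIF4B, EIF3F and EIF1B fell (33.3%). Of the 28 without the motif 53.6% rose and 17.9% fell. Over all 1265 tested protein-coding genes with the motif 31.1% rose and 34.5% fell. These shares were near those of all 10040 matched genes, 27% and 37.2%. No difference was tested. EIF4G1 held the motif at 2 places, 67 and 144 bases before an annotated start, and EIF5A2 at 162 and 187 bases. EIF4E, a gene known as a MYC target, also held it at 2 places, 72 and 225 bases before its start. The sites of EIF4B, EIF3F and EIF1B, which fell, are not printed. Only those of EIF4E are shown, with the motif in capitals.

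EIF4E chr4:98929188-98929217 minus strand: ggacatatccgtCACGTGgccagaagctgg
EIF4E chr4:98929341-98929370 minus strand: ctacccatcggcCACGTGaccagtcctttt

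Of the 9 tested members of the cap-binding and helicase group 6 rose, 2 fell and 1 did not pass, 88.9% called against 63.5% of all genes. Their median absolute log2 change was 0.68, beside 0.33 over all genes. Under quantile normalization 4 of the 9 rose, 2 fell and 3 did not pass, 66.7% called against 61.6% of all genes. EIF4G2 (Entrez 1982, chromosome 11, 10818593 to 10830582, hg19), a relative of eIF4G that lacks the eIF4E-binding part and serves cap-independent initiation, stood at 137, 139 and 127.5 FPKM in control and 304, 304 and 305 in knockdown libraries. No other of the 44 tested factors rose as much: it was 2.27-fold higher, a log2 change of 1.17 (SE 0.04; limma adjusted p = 7.67e-07), and the knockdown libraries ran only from 303.8 to 305.2 FPKM. EIF4G1, the main scaffold of eIF4F, was at 122, 116 and 110 FPKM in control and at 185, 187 and 184 in knockdown libraries. The groups did not overlap, and the log2 change of EIF4G1 was 0.68 (SE 0.04; limma adjusted p = 8.05e-06). EIF4G3, the other eIF4G scaffold, was at 17.6, 20.5 and 19.5 FPKM in control and 21.6, 20.6 and 21.6 in knockdown libraries and did not pass (limma adjusted p = 0.0928; 0.0112 under median scaling, 0.0453 under quantile normalization and 0.0473 without control replicate 2).

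EIF4E (Entrez 1977, chromosome 4, 99799607 to 99851786, hg19), which binds the cap and whose E-boxes are printed above, was at 19.5, 22.2 and 18.02 FPKM in control and 33.7, 35.3 and 33.4 in knockdown libraries. All knockdown values of EIF4E were above all control values, and it was 1.71-fold higher (log2 change 0.75, SE 0.08; limma adjusted p = 6.54e-05). EIF4E2, a cap-binding relative known for repression, rose by less: it was at 59.4, 55.03 and 55.1 FPKM in control and 61.6, 66.9 and 63.0 in knockdown libraries, a log2 change of 0.17. That call was lost under quantile normalization (limma adjusted p = 0.192) and without control replicate 2 (0.0586), control replicate 3 (0.0589) or knockdown replicate 2 (0.0805). EIF4E3 was below the filter, at 0.791, 0.467 and 0.539 FPKM in control and 0.228, 0.267 and 0.174 in knockdown libraries. The groups did not overlap, the fold was 2.69 lower, and in the fit with no filter EIF4E3 fell by 0.38 on the log2 scale (limma adjusted p = 0.00966). EIF4E1B, an oocyte form, was listed in 4 of 6 libraries and nowhere above 0.467 FPKM.

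The helicase pair went in opposite directions. EIF4A2 (Entrez 1974, chromosome 3, 186501361 to 186507685, hg19), whose tract opens the list of sequences, was at 371, 400 and 417 FPKM in control and 188, 195 and 199 in knockdown libraries. This was the largest fall among the 44 tested factors, 2.04-fold, with a log2 change of -1.02 (SE 0.05; limma adjusted p = 2.26e-06). EIF4A1, the more abundant paralog, was at 577, 581 and 577 FPKM in control and 676, 690 and 674 in knockdown libraries. It rose by 0.23 on the log2 scale (SE 0.03; limma adjusted p = 0.0004), a call lost under quantile normalization (0.07; limma adjusted p = 0.205). EIF4A2 therefore made up 39.1%, 40.8% and 42.0% of the EIF4A1 and EIF4A2 sum in control libraries and 21.8%, 22.01% and 22.8% in knockdown libraries, a share that multiplying a library by a constant cannot move. The introns of both genes hold small nucleolar RNAs; 3 are listed inside each locus. Of these 6, all but SNORA81 were at 0 in at least 1 library, and values above 0 ran from 13.6 to 1238 FPKM; their part in the helicase values was not tested.

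The 2 helper proteins of eIF4A also parted. EIF4B, an RNA-binding protein that stimulates the helicase, was at 233, 248 and 265 FPKM in control and 147, 142 and 151 in knockdown libraries. EIF4B fell by 0.76 on the log2 scale (SE 0.05; limma adjusted p = 1.11e-05), with no overlap. EIF4H, a smaller protein with the same task, was at 244, 234 and 235 FPKM in control and 268, 269 and 263 in knockdown libraries. Its rise of 0.16 on the log2 scale (limma adjusted p = 0.00464) was lost under quantile normalization (0.05; limma adjusted p = 0.23).

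Among the 3 tested eIF4E-binding proteins 1 fell, 1 rose and 1 did not pass, 66.7% called against 63.5% of all genes. Under quantile normalization 33.3% were called against 61.6%. EIF4EBP1, the inhibitor that mTOR phosphorylates and a known ATF4 target, was at 91.5, 109 and 99.9 FPKM in control and 46.4, 51.3 and 60.2 in knockdown libraries. Every control value exceeded every knockdown value, and EIF4EBP1 was 1.90-fold lower (log2 change -0.92, SE 0.10; limma adjusted p = 8.36e-05). EIF4EBP2, a second inhibitor, was at 40.8, 38.9 and 40.1 FPKM in control and 43.8, 43.5 and 47.3 in knockdown libraries. That small rise (0.16 on the log2 scale; limma adjusted p = 0.0219) was lost under quantile normalization (limma adjusted p = 0.0628) and without control replicate 2 (0.0643) or knockdown replicate 3 (0.0894). EIF4ENIF1, which carries eIF4E into the nucleus, averaged 4.01 ± 0.447 and 3.34 ± 0.379 FPKM and did not pass (limma adjusted p = 0.118), with a sign that differs between settings. EIF4EBP3 was estimated at practically 0 in 4 libraries and at 0.514 and 1.02 FPKM in control replicate 3 and knockdown replicate 3; the read-through gene ANKHD1-EIF4EBP3 overlaps it and can share its reads.

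Because EIF4E rose and EIF4EBP1 fell, their ratio within a library moved further than either. EIF4EBP1 had 4.70, 4.88 and 5.55 times the FPKM of EIF4E in control libraries and 1.38, 1.45 and 1.80 times in knockdown libraries. The mean ratio was 5.04 ± 0.444 against 1.55 ± 0.226, which is 3.26-fold lower in the knockdown group. EIF4G2 went from 1.12, 1.20 and 1.16 times the FPKM of EIF4G1 to 1.64, 1.63 and 1.66 times. EIF4G3 went from 0.145, 0.177 and 0.177 times EIF4G1 to 0.117, 0.110 and 0.117 times. These ratios are descriptions of transcripts and were given no test.

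**Figure D4:**
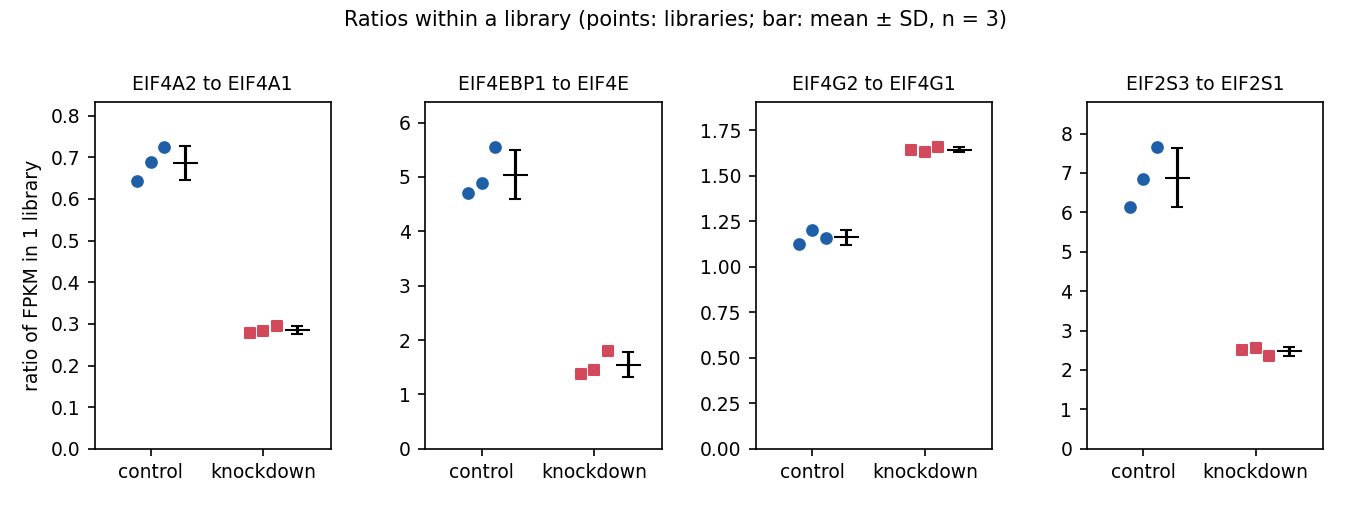
Ratio of the FPKM of 2 factors within each library (points) with the group mean and SD (n = 3), on linear axes that start at 0. The EIF4A2 to EIF4A1, EIF4EBP1 to EIF4E and EIF2S3 to EIF2S1 ratios are lower in all 3 knockdown libraries, and the EIF4G2 to EIF4G1 ratio is higher.

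The eIF2 subunits did not move together. EIF2S1 (Entrez 1965, chromosome 14, 67827034 to 67853233, hg19), the alpha subunit that stress kinases phosphorylate, was at 32.6, 32.7 and 30.2 FPKM in control and 55.6, 54.0 and 61.8 in knockdown libraries. EIF2S1 was 1.80-fold higher (log2 change 0.82, SE 0.06; limma adjusted p = 1.66e-05). EIF2S3, the GTP-binding gamma subunit, was at 200.5, 224 and 231 FPKM in control and 139, 138 and 146 in knockdown libraries. It fell by 0.63 on the log2 scale (SE 0.06; limma adjusted p = 3.85e-05), and neither gene's groups overlapped. EIF2S2, the beta subunit, was at 99.8, 111 and 109 FPKM in control and 90.7, 93.4 and 92.8 in knockdown libraries. Its fall of 0.20 on the log2 scale (limma adjusted p = 0.00715) was lost under median scaling (limma adjusted p = 0.0544). The alpha subunit was the least abundant of the 3 in every library. EIF2S3 stood at 6.15, 6.85 and 7.65 times EIF2S1 in control and 2.50, 2.56 and 2.35 times in knockdown libraries, and EIF2S2 at 3.06 to 3.61 times and 1.501 to 1.73 times.

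In eIF2B, the exchange factor for eIF2, 4 of 5 subunits rose (25.6% of all genes did), all by less than 0.5 on the log2 scale, and the call of EIF2B4 was lost in 6 of 16 alternative settings. EIF2B3 and EIF2B5 are the gamma and epsilon subunits that form the catalytic part. EIF2B3 went from 11.4 ± 0.889 to 16.3 ± 0.878 FPKM. EIF2B5 was at 20.3, 17.8 and 17.4 FPKM in control and 23.0, 22.1 and 22.6 in knockdown libraries. EIF2B1, the alpha subunit, went from 28.1 ± 1.16 to 35.7 ± 0.917 FPKM (limma adjusted p = 0.000584). EIF2B4 was at 11.3, 11.7 and 12.3 FPKM in control and 12.4, 14.2 and 15.4 in knockdown libraries (limma adjusted p = 0.0389). Its call was lost without the filter (limma adjusted p = 0.0614) and whenever a replicate other than knockdown replicate 1 was left out (0.0503 to 0.138). EIF2B2, the most abundant subunit, did not pass: it was at 81.0, 76.1 and 74.3 FPKM in control and 73.2, 68.6 and 70.6 in knockdown libraries (limma adjusted p = 0.0582). EIF2S1 rose relative to EIF2B5, from 1.61, 1.83 and 1.73 to 2.41, 2.44 and 2.73 times its FPKM. Of the alternative initiators, which deliver initiator tRNA without eIF2, EIF2D was at 45.05, 43.3 and 48.3 FPKM in control and 32.7, 36.0 and 35.2 in knockdown libraries (limma adjusted p = 0.000654). EIF2A fell from 45.2 ± 6.92 to 34.2 ± 1.61 FPKM, and both carry a tract in the list of sequences.

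Among the 13 tested subunits of eIF3 the median subunit stood at 186, 182 and 189 FPKM in control and 187, 187 and 193 in knockdown libraries. Of the 13, 3 rose, 4 fell and 6 did not pass, 53.8% called against 63.5% of all genes. Under median scaling EIF3C, EIF3D and EIF3I rose and EIF3H lost its call, which gave 6 higher and 3 lower, 69.2% against 63.3% of all genes. Quantile normalization gave 2 higher and 6 lower, 61.5% called against 61.6% of all genes. EIF3J (Entrez 8669, chromosome 15, 44829266 to 44855001, hg19), the loosely bound subunit near the decoding site, was at 22.9, 27.6 and 26.9 FPKM in control and 50.3, 48.0 and 48.8 in knockdown libraries. EIF3J was 1.90-fold higher (log2 change 0.90, SE 0.07; limma adjusted p = 1.83e-05). EIF3B, a scaffold with EIF3G and EIF3I on the solvent side, was at 89.9, 87.1 and 79.1 FPKM in control and 136, 138 and 132 in knockdown libraries. EIF3B rose by 0.66 on the log2 scale (SE 0.05; limma adjusted p = 2.27e-05), while EIF3G went from 152 ± 1.07 to 130.2 ± 1.49 FPKM and fell (limma adjusted p = 0.000744). EIF3I, the third of that module, did not pass at 263 ± 15.2 and 284 ± 6.26 FPKM.

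In the octamer that forms the core of eIF3, EIF3F had the largest change. It is 1 of the 2 subunits with an MPN domain, and it was at 147, 151 and 153 FPKM in control and 99.4, 96.3 and 96.1 in knockdown libraries. EIF3F was 1.55-fold lower (log2 change -0.62, SE 0.04; limma adjusted p = 6.2e-06). EIF3H, the other MPN subunit and partner of EIF3F, fell by 0.15 on the log2 scale from 286 ± 9.27 to 258 ± 3.31 FPKM. The EIF3H call was lost under median scaling (limma adjusted p = 0.22) and when libraries were scaled without small RNAs (0.0531). EIF3L fell from 241 ± 10.6 to 189 ± 3.61 FPKM, and its neighbour EIF3K rose from 211 ± 11.9 to 248 ± 7.29 (limma adjusted p = 0.00383; 0.0608 under quantile normalization). EIF3E, the most abundant subunit, was at 352, 396 and 391 FPKM in control and 341, 354 and 347 in knockdown libraries, overlapped and did not pass (limma adjusted p = 0.0594). EIF3A, the largest subunit, EIF3C and EIF3M did not pass either, and EIF3D, which can bind the cap itself, stood at 186 ± 3.89 and 195 ± 1.75 FPKM. The directions of EIF3A, EIF3D, EIF3I and EIF3M differ between scalings, and EIF3M fell under quantile normalization (log2 change -0.09; limma adjusted p = 0.049). EIF3C, at 2 loci on chromosome 16, was summed over both and shares its sequence with EIF3CL, which was listed at 0.784 FPKM or less, so the pair is uncertain.

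Set against the median subunit of the same library, EIF3J went from 0.139 ± 0.014 to 0.259 ± 0.008 and EIF3B from 0.460 ± 0.037 to 0.715 ± 0.030. EIF3F went from 0.809 ± 0.020 to 0.515 ± 0.017 and EIF3L from 1.30 ± 0.040 to 1.00, being the median subunit itself in each knockdown library. In all, 5 subunits were higher in every knockdown library than in any control library on this relative scale, 4 were lower and 4 overlapped; on the FPKM scale 69.1% of all genes did not overlap. EIF3D is counted as higher although it is itself the median subunit in each control library.

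**Figure D5:**
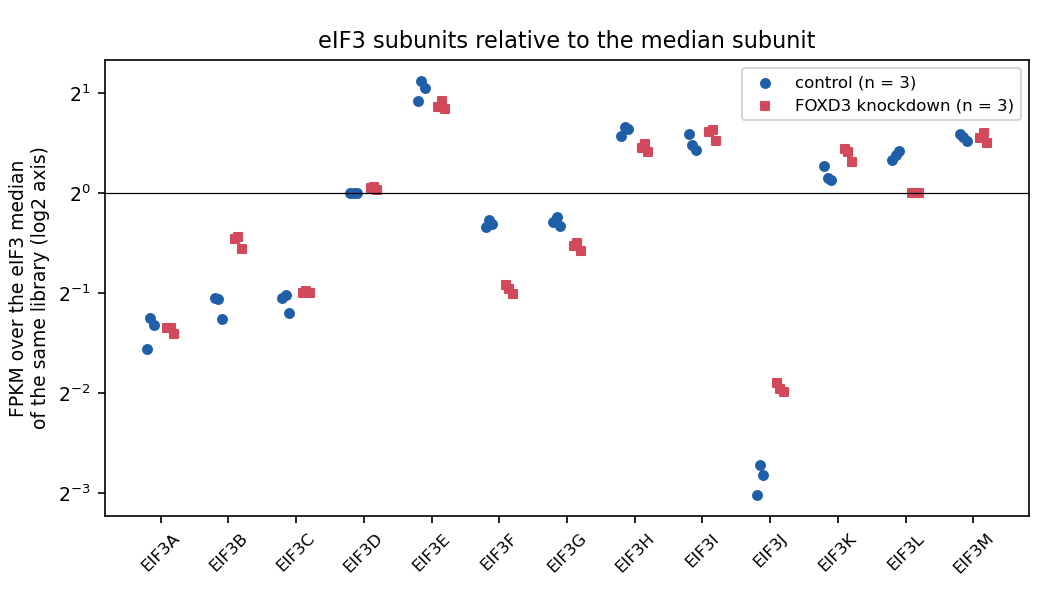
FPKM of each of the 13 eIF3 subunits divided by the median subunit of the same library, on a log2 axis, for 3 control (blue circles) and 3 knockdown (red squares) libraries. EIF3J and EIF3B are higher and EIF3F, EIF3G, EIF3H and EIF3L lower in all knockdown libraries, and EIF3J is the lowest subunit in all 6.

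Among the 6 factors of scanning and subunit joining 3 rose, 2 fell and 1 did not pass, 83.3% called against 63.5% of all genes. EIF5, which makes eIF2 hydrolyse its GTP at the start codon, was at 75.8, 105 and 95.8 FPKM in control and 178, 181 and 174 in knockdown libraries. EIF5 was 1.93-fold higher (log2 change 0.95, SE 0.10; limma adjusted p = 9.92e-05), although control replicate 1 was low, and without it the log2 change was 0.82. EIF1AX, the eIF1A encoded on the X chromosome, was at 39.6, 41.9 and 38.8 FPKM in control and 67.7, 72.0 and 68.1 in knockdown libraries. The groups of EIF1AX did not overlap, with a log2 change of 0.77 (SE 0.05; limma adjusted p = 6.63e-06). EIF5B, the GTPase of subunit joining, was at 28.3, 37.3 and 37.6 FPKM in control and 50.6, 48.5 and 51.7 in knockdown libraries (log2 change 0.54; limma adjusted p = 0.00192), again with control replicate 1 lowest, and its log2 change was 0.41 without that library.

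EIF1, which guards against initiation at wrong codons and is in the class without a tract, went the other way. It was at 389, 429 and 430 FPKM in control and 267, 271 and 273 in knockdown libraries. EIF1 was 1.54-fold lower (log2 change -0.62, SE 0.05; limma adjusted p = 1.52e-05), and its paralog EIF1B fell from 52.4 ± 2.51 to 40.7 ± 2.44 FPKM. EIF6, which keeps the large subunit from joining early, was at 186, 188 and 188 FPKM in control and 196, 190 and 199 in knockdown libraries and did not pass (limma adjusted p = 0.188). EIF6 rose under median scaling (limma adjusted p = 0.0108) and when scaled without small RNAs (0.039), and had the opposite sign under quantile normalization. EIF1AD, a nuclear protein with an eIF1A domain, was at 17.9, 17.9 and 17.1 FPKM in control and 21.4, 22.9 and 21.97 in knockdown libraries and rose. The locus of BANF1 overlaps that of EIF1AD from 65769550 to 65769637 (chromosome 11, hg19). BANF1 was at 147 to 160 FPKM in control and 186 to 193 in knockdown libraries, and its part in the EIF1AD values was not tested.

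EIF5A (Entrez 1984, chromosome 17, 7210318 to 7215782, hg19) was the most abundant factor. It carries hypusine, a modified lysine, and relieves ribosomes stalled during elongation and termination. EIF5A was at 561, 494 and 492 FPKM in control and 913, 920 and 892 in knockdown libraries. The groups were far apart, and EIF5A was 1.76-fold higher (log2 change 0.82, SE 0.06; limma adjusted p = 8.42e-06). EIF5A2, its paralog known from amplified tumours, was at 5.76, 6.85 and 5.56 FPKM in control and 8.47, 8.24 and 9.66 in knockdown libraries, a log2 change of 0.47 (limma adjusted p = 0.00263). The EIF5A2 to EIF5A ratio overlapped between groups, at 0.0103 to 0.0139 in control and 0.0090 to 0.0108 in knockdown libraries. EIF5AL1, an intronless copy of EIF5A, was listed at 0.0993 FPKM or less in 5 libraries, and its reads cannot be told apart from those of EIF5A with certainty.

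The wider pathway was read from a list of 39 partner genes outside the rule, of which 38 were tested. In it 16 rose (42.1%, against 25.6% of all genes) and 11 fell (28.9%, against 37.9%), with a median log2 change of 0.00 beside -0.09. All 5 helicases and recycling factors rose. ABCE1, which splits ribosomes for the next round, was at 15.03, 15.6 and 15.5 FPKM in control and 37.1, 36.6 and 39.2 in knockdown libraries, the largest rise among the partners (log2 change 1.24; limma adjusted p = 1.07e-06). DDX3X, a helicase for structured leaders, was at 48.1, 53.4 and 52.6 FPKM in control and 86.1, 85.9 and 87.7 in knockdown libraries. Both groups stood clear of each other in these 2 genes. The nuclear cap-binding gene NCBP1 was at 12.6, 11.9 and 13.2 FPKM in control and 22.5, 22.2 and 21.1 in knockdown libraries. The termination factors ETF1 and GSPT1 rose by 0.47 and 0.57 on the log2 scale, and GSPT2 was listed in no library. Among regulators of eIF4F, MTOR rose from 11.9 ± 1.17 to 19.0 ± 0.412 FPKM, and PDCD4, an inhibitor of eIF4A, was at 19.3, 22.8 and 21.9 FPKM in control and 11.8, 11.5 and 12.99 in knockdown libraries and fell.

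Of the 8 elongation genes on the list 2 rose (25%, against 25.6% of all genes) and 4 fell (50%, against 37.9%). EEF1E1 rose by 0.60 on the log2 scale and EEF1B2 by 0.12. The 3 most abundant were among those that fell. EEF1A1, which delivers tRNAs to the ribosome, was at 4939, 5530 and 5748 FPKM in control and 2976, 2948 and 3064 in knockdown libraries (log2 change -0.85). EEF2, the translocase, was at 961, 1014 and 1026 FPKM in control and 529, 518 and 524 in knockdown libraries (log2 change -0.93). EEF1G, a subunit of the exchange factor for EEF1A1, was at 2095, 1991 and 2089 FPKM in control and 1423, 1399 and 1459 in knockdown libraries (log2 change -0.53) and has no pyrimidine start. EEF1A1 and EEF2 have one, and so has EEF1B2 at 1 of its 2 annotated starts, which rose from 381 ± 5.34 to 413 ± 8.87 FPKM. Of the 29 matched partners without such a start, 14 rose (48.3%) and 7 fell (24.1%). Of all 9286 protein-coding genes without one, 27.7% rose and 36% fell. Only 3 partners have such a start, too few to compare the classes. The starts of EEF1A1 and EEF2 are shown for comparison with the factors above.

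EEF1A1 chr6:73521018-73521047 minus strand: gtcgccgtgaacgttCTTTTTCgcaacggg
EEF2 chr19:3985449-3985478 minus strand: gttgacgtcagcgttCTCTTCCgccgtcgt

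Genes that act on eIF2 and eIF5A by modification were also measured. Of 6 eIF2 kinases and phosphatase subunits 0 rose and 3 fell (50%, against 37.9% of all genes). PPP1R15A, the stress-induced subunit that directs a phosphatase to eIF2 alpha, was at 42.9, 56.2 and 53.6 FPKM in control and 18.5, 20.0 and 18.8 in knockdown libraries, the largest fall among the partners (log2 change -1.36). Its constitutive counterpart PPP1R15B did not pass. Of the 4 eIF2 kinases, EIF2AK4 (GCN2, which senses uncharged tRNA) fell from 12.5, 12.3 and 12.2 FPKM to 9.08, 8.81 and 9.43, with no overlap. EIF2AK3 (PERK, of the endoplasmic reticulum) fell from 4.52, 6.07 and 5.49 FPKM to 3.90, 4.15 and 4.40, also without overlap. EIF2AK1, which responds to haem shortage, did not pass, at 56.0, 52.2 and 54.9 FPKM in control and 51.1, 51.2 and 51.9 in knockdown libraries. EIF2AK2, which responds to double-stranded RNA, overlapped, at 21.1, 20.5 and 21.9 FPKM and 21.5, 20.0 and 22.1. The enzymes that make hypusine on EIF5A parted: DHPS, the first, fell from 58.2 ± 2.84 to 39.3 ± 3.16 FPKM, and DOHH, the second, rose from 5.10, 5.66 and 3.50 FPKM to 8.28, 8.59 and 7.51.

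The authors' deposited table of their own comparison listed 43 of the 49 factors, and each of the 43 had the same sign there as in the test above. At a false discovery rate under 0.05 the authors' deposited table called 10 factors higher and 3 lower, where it called 22.1% of its 12275 genes, 10.9% higher and 11.2% lower. In the authors' deposited table these were EIF4G2, EIF5, EIF3J, EIF5A, EIF2S1, EIF1AX, EIF4E, EIF4G1, EIF3B and EIF5B higher and EIF4A2, EIF4EBP1 and EIF4B lower. All 13 are among the 16 with a log2 change of at least 0.5 here. The other three, EIF1, EIF2S3 and EIF3F, all lower, did not pass that table's rate. That table was made from the same libraries and is not independent.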

How the data were processed

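The 6 libraries were grouped by the genotype in their labels, 3 control and 3 knockdown. The authors deposited FPKM per gene for each library, per the file headers; TopHat2 2.0.12, Bowtie, Cufflinks 2.0.2, Cuffdiff and hg19 appear in the submitters' processing notes without a role or order. What annotation and strand setting were used is not given in the sources used here. Their own comparison, in the authors' deposited table, holds, per the file headers, 1 FPKM per group, the log2 ratio of knockdown to control and, for each gene, a p-value with its false discovery rate; it was only set beside the results.

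FPKM was summed over the rows of a symbol, and a symbol not listed was set to 0. The filter kept genes averaging 0.5 FPKM or more. The test was limma 3.58.1 in R 4.3.3 on log2(FPKM + 1) (two-sided; eBayes with a mean trend; Benjamini-Hochberg adjustment over all 13340 genes, threshold 0.05), with no covariate, since the labels give no batch or pairing. Depth was read from FPKM times length in intronless genes of at least 1500 bp, taking only values that imply 5 to 10 × 1e6 fragments, from 9 to 16 genes per library; the window was set after seeing the values and the estimate cannot leave it. Lengths came from GENCODE 29.

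The members, complexes, partner list and markers were chosen with earlier results of these data known. Values in each library are printed for factors past the threshold with a log2 change of at least 0.5 in size, the most abundant member of each complex, the ratio pairs and, among partners, up to 8 with the largest changes and the eIF2 kinases; other genes were named after their values were seen. The pyrimidine start and E-box searches were chosen after the changes had been seen. hg19 coordinates are those of the deposited tables, written 1-based; sequences are RefSeq, GRCh38.p14. Alternatives covered the pseudocount, the filter, 3 scalings, 2 forms of eBayes, the largest single row of a symbol, and each library left out.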

Additional observations from a re-analysis of the deposited data

How the results depend on the processing

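Of the 34 factors that changed, 26 kept their call and direction in all 16 alternative settings, among them all 16 with a log2 change of at least 0.5. The other 8 lost their call in at least 1 setting: EIF2S2 and EIF3H under median scaling (EIF3H also when scaled without small RNAs), EIF3K, EIF4A1, EIF4H, EIF4E2 and EIF4EBP2 under quantile normalization, and EIF2B4 without the filter. EIF2B4, EIF4E2 and EIF4EBP2 also lost it with some single libraries left out. Of the 10 that did not pass, 9 passed in at least 1 setting: EIF3C, EIF3D, EIF3I and EIF6 (higher) under median scaling and when scaled without small RNAs, EIF2B2, EIF3E and EIF3M (lower) under quantile normalization, EIF4G3 (higher) under both median scaling and quantile normalization, and EIF4ENIF1 (lower) without control replicate 1. EIF3A passed in none, though its sign differed between settings. EIF3M had the opposite sign and passed under quantile normalization, with a log2 change of -0.0946; the cause was not tested. With 1 library left out, 19 to 22 factors were higher and 13 to 15 lower. The split of all genes moved with scaling, from 40.4% of calls higher as deposited to 49.0% under median scaling and 52.4% under quantile normalization; for the factors these shares were 61.8%, 70.3% and 51.5%. The FOXD3 difference stayed negative with each library left out (-0.196 to -0.118 FPKM), where groups of 2 and 3 allow no p below 0.2. No paired analysis was possible because the labels give no replicate numbers that join a control to a knockdown library. FPKM tables carry no counts, so depth is known only by a rough estimate, and it limits EIF4E3, EIF4E1B, EIF4EBP3, EIF5AL1 and EIF3CL.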
